A study of Homo sapiens with 6 samples.

Results

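Cells measure oxygen through the hypoxia-inducible factors (HIFs), and the genes of that system are described here in gastric cancer cells depleted of ALKBH3, an enzyme that takes methyl groups off alkylated DNA and RNA. The 35 genes were chosen by name, with earlier results of these data known. They are the HIF subunits, the hydroxylases and ligase subunit that hold them in check, and targets of HIF other than glycolytic enzymes. All 35 are among the 20325 genes of the deposited table, each on a single line, and all 35 passed the filter on low counts together with 12305 genes in all. RNA came from SNU-668, an established cell line, in a form that the protocols call resistant to erastin, a compound that blocks cystine uptake and triggers ferroptosis. The title of every library begins with RLS3 and does not name erastin, and what RLS3 stands for was not established here. The 3 ALKBH3 knockdown libraries come from resistant cells given an shRNA against ALKBH3. The 3 control shRNA libraries come from the same resistant cells given a negative control shRNA, although their genotype label reads WT. All were grown in DMEM with serum. How many hairpins were used, and whether cells were pools or clones, is not stated in the sources used here. Nothing says that replicates were separate cultures, so a p-value here reflects no more than library-to-library spread, which may be technical.

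When oxygen is plentiful, prolyl hydroxylases of the EGLN family mark the HIF alpha subunits, and the VHL ligase then has them destroyed. When oxygen falls, the alpha subunits HIF1A and EPAS1 persist, pair with ARNT and raise genes for acid export, vessel growth, mitochondrial turnover and matrix assembly. The hydroxylases need iron and 2-oxoglutarate, as ALKBH3 does. Because HIF1A and EPAS1 are controlled mainly as proteins, their mRNA levels do not report how much active factor a cell holds.

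The libraries held from 14244932 to 17880183 counts. ALKBH3 had 95, 106 and 68 counts in the knockdown libraries, against 326, 351 and 334 counts with control shRNA, so the targeted transcript was low in every library of its label. Of 10 markers of gastric and general epithelium, CDH1, CLDN18 and GKN1 had 0 counts in all libraries and TFF1, TFF2 and EPCAM had 2, 4 and 54 in total, while the keratins KRT18, KRT8 and KRT19 had 16418, 1480 and 114 and the mucin MUC1 300 counts. The mesenchymal filament gene VIM had 366202 counts in total. The summed CPM of the 10 epithelial markers ran from 212 to 223 in the knockdown and from 155 to 176 in the controls. That of 4 immune markers ran from 0.0664 to 4.23 in the knockdown and from 0.677 to 1.63 in the controls, and that of 3 endothelial markers from 2.20 to 2.53 in the knockdown and from 1.18 to 2.18 in the controls. CD3E had 0 counts. The sum of 5 mesenchymal markers ran from 7350 to 7862 CPM in the knockdown and from 7608 to 8194 CPM in the controls. The part of these markers in the results below was not tested. Every pair of libraries differed by more than sampling noise. On the second principal component, with 18.4% of the variance, ALKBH3 knockdown replicate 1 was at 9.30, against -5.10 and -5.15 in its group. Control shRNA replicate 2 was at -17.9, against 9.81 and 9.03 in its group. By rank correlation the controls were alike, at 0.9941 and 0.9934 for replicate 2 with replicates 1 and 3 and 0.9937 between those.

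HIF binds the core letters ACGTG and, with another first base, GCGTG. Both were searched for close to the start of these genes. In the window from 250 bases before to 50 after the start (RefSeq, GRCh38.p14), both strands were read, so that CACGT counts as ACGTG. Matches to it can overlap the E-box CACGTG, which other factors bind. A window was found for 30 of the 35 genes, and 18 of these 30 held ACGTG. The share was 24.9% of 27305 genes with a window and 32.6% of the 9365 tested genes matched by symbol. The median GC content was 67.6% in the 30 genes, 65.0% in the tested genes and 58.3% in all. ACGTG was found for 10 of 17 genes that fell in the knockdown and for 8 of 13 that did not pass the test. Among the targets alone it was in 10 of 16 that fell and in 6 of 7 that did not pass. GCGTG was in 15 of the 30, against 58.8% of the tested genes and 40.6% of all, so its share lay below that of the tested genes. CACGTG itself was in 8 of the 30, or 26.7%, against 12.6% of the tested genes and 8.77% of all. A match describes letters and is not a site shown to be bound. The stretches below, each 60 bases upstream of the start with the ACGTG matches in capitals, come from 4 genes that fell (CA9, BNIP3, P4HA1 and WSB1) and from 2 that did not pass (EGLN1 and ANKRD37), to show that both kinds carry it. They lie at chr9:35673868-35673927 on the plus strand, chr10:131982024-131982083 on the minus strand, chr10:73096922-73096981 on the minus strand, chr17:27294004-27294063 on the plus strand, chr1:231422288-231422347 on the minus strand and chr4:185396671-185396730 on the plus strand, in the order printed.
CA9: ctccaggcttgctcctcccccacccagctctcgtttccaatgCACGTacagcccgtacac
BNIP3: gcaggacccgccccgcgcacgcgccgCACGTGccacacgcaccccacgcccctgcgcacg
P4HA1: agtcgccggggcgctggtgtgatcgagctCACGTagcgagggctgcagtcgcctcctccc
WSB1: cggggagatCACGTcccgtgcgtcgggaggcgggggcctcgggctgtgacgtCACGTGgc
EGLN1: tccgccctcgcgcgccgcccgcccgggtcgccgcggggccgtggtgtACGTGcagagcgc
ANKRD37: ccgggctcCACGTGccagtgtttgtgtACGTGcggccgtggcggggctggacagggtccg
The match in CA9 begins at position -18 from the start, that in EGLN1 at -13 and that in P4HA1 at -86. BNIP3, WSB1 and ANKRD37 each hold the E-box form, at -134, -58 and -162.

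Of the 35 genes, 18 fell in the ALKBH3 knockdown and 0 rose, where 4.12% of all tested genes were called lower and 3.96% higher (edgeR's quasi-likelihood test, called at an adjusted p under 0.05 over the 12305 genes). A further 6 were not called but had an unadjusted p under 0.05, as did 1736 of the 12305 tested genes. DESeq2 called 19 lower and 1 higher, where it called 4.4% and 3.78% of all genes. These are bulk libraries, in which fewer cells with a transcript and less transcript per cell cannot be told apart. The median log2 fold change, knockdown over control, was -0.32 over the 35 genes and 0.01 over all tested genes. In 23 of the 35 every knockdown library lay below every control library, and in 2 every knockdown library lay above, where each happened in 13.3% of all tested genes. With library totals as the only scaling, 17 of the genes were lower and 1 higher, and calls over all genes divided into 417 lower (3.39%) and 610 higher (4.96%), against 507 lower and 487 higher with TMM scaling.

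By role, the 27 genes that are HIF targets and not part of the sensing machinery all had a negative log2 fold change, and 17 of them fell. Over all 12305 tested genes, 5955 had a negative log2 fold change and 507 were called lower. The targets were chosen with earlier results of these data known. Of the 8 subunits, hydroxylases and ligase genes, 1 fell, the hydroxylase EGLN3, and the other 7 did not pass.

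**Figure D1:**
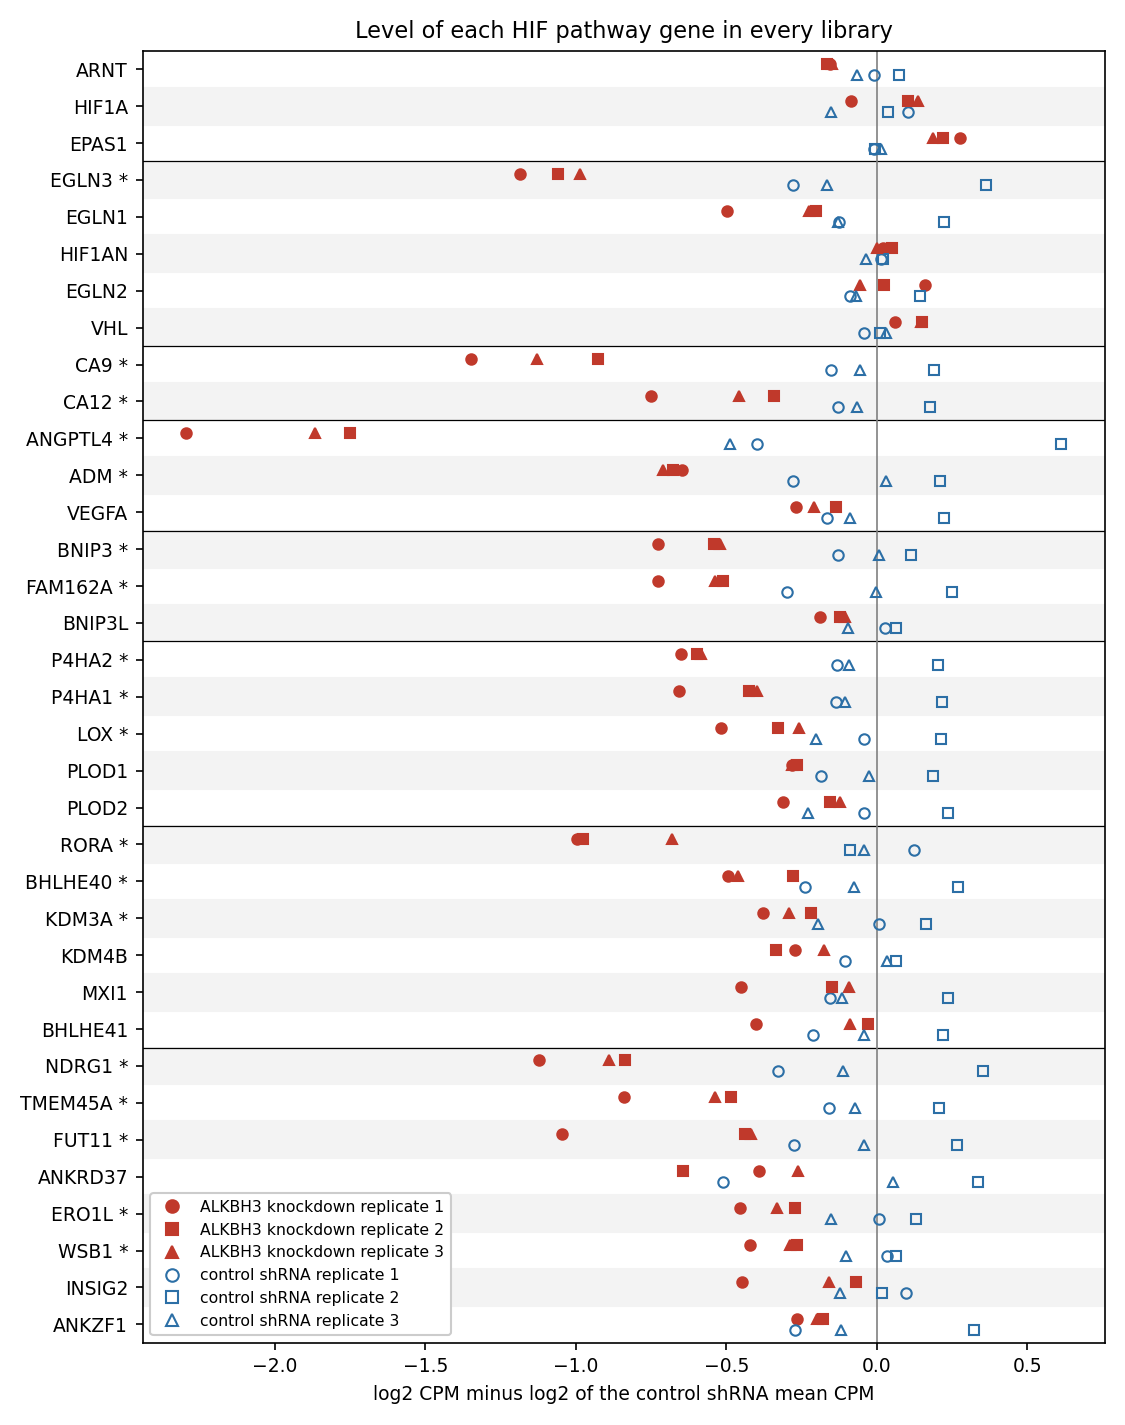
Level of each of the 35 genes in every library, as log2 CPM minus the log2 of the control shRNA mean, grouped by role from the HIF subunits (top) to other targets (bottom). Filled red symbols are ALKBH3 knockdown libraries, open blue symbols control shRNA libraries, and an asterisk marks an adjusted p under 0.05; most red symbols of the target genes lie left of the blue ones, and the open square of control shRNA replicate 2 is farthest right in 25 of the 27 targets.

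The control libraries were not alike in these genes. Control shRNA replicate 2 had the highest level of all 6 libraries in 28 of the 35 genes, against 16.6% of all tested genes, and in 25 of the 27 targets. Its CPM over the mean of the other control libraries had a median of 1.25 across the targets, with a range from 0.911 for RORA to 2.08 for ANGPTL4. ALKBH3 knockdown replicate 1 was the lowest library in 24 of the 35 genes, against 18.8% of all tested genes. The mean log2 level of the 27 targets, relative to the control mean of each gene, was -0.64, -0.44 and -0.45 in the knockdown, against -0.15, 0.20 and -0.09 in the controls. The groups did not overlap, but the spread among controls was of the same order as the distance between the lowest control and the highest knockdown library. Together the 35 genes took 0.530%, 0.589% and 0.588% of the counts in the knockdown, against 0.656%, 0.793% and 0.642% in the controls.

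Without control shRNA replicate 2, 13 of the 35 genes were lower and 0 higher, where 3.37% of all tested genes were lower and 3.48% higher, and their median log2 fold change was -0.23. LOX, KDM3A, BHLHE40, FUT11 and ERO1L then did not pass. Without ALKBH3 knockdown replicate 1 the count was also 13 (2.8% of all genes, with 3.01% higher), and NDRG1, LOX, KDM3A, BHLHE40 and FUT11 did not pass. Without both libraries 11 were lower (2.9% of all genes, with 3.11% higher): EGLN3, CA9, ADM, ANGPTL4, BNIP3, FAM162A, P4HA1, P4HA2, TMEM45A, NDRG1 and RORA. All 27 targets kept a negative log2 fold change without control shRNA replicate 2, and 24 of the 27 without both libraries. The median over all tested genes was 0.006 and 0.003 in these fits. Control shRNA replicate 2 was the highest library in 25 targets and ALKBH3 knockdown replicate 1 the lowest in 22. Leaving them out therefore makes most of these fold changes smaller by construction.

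**Figure D2:**
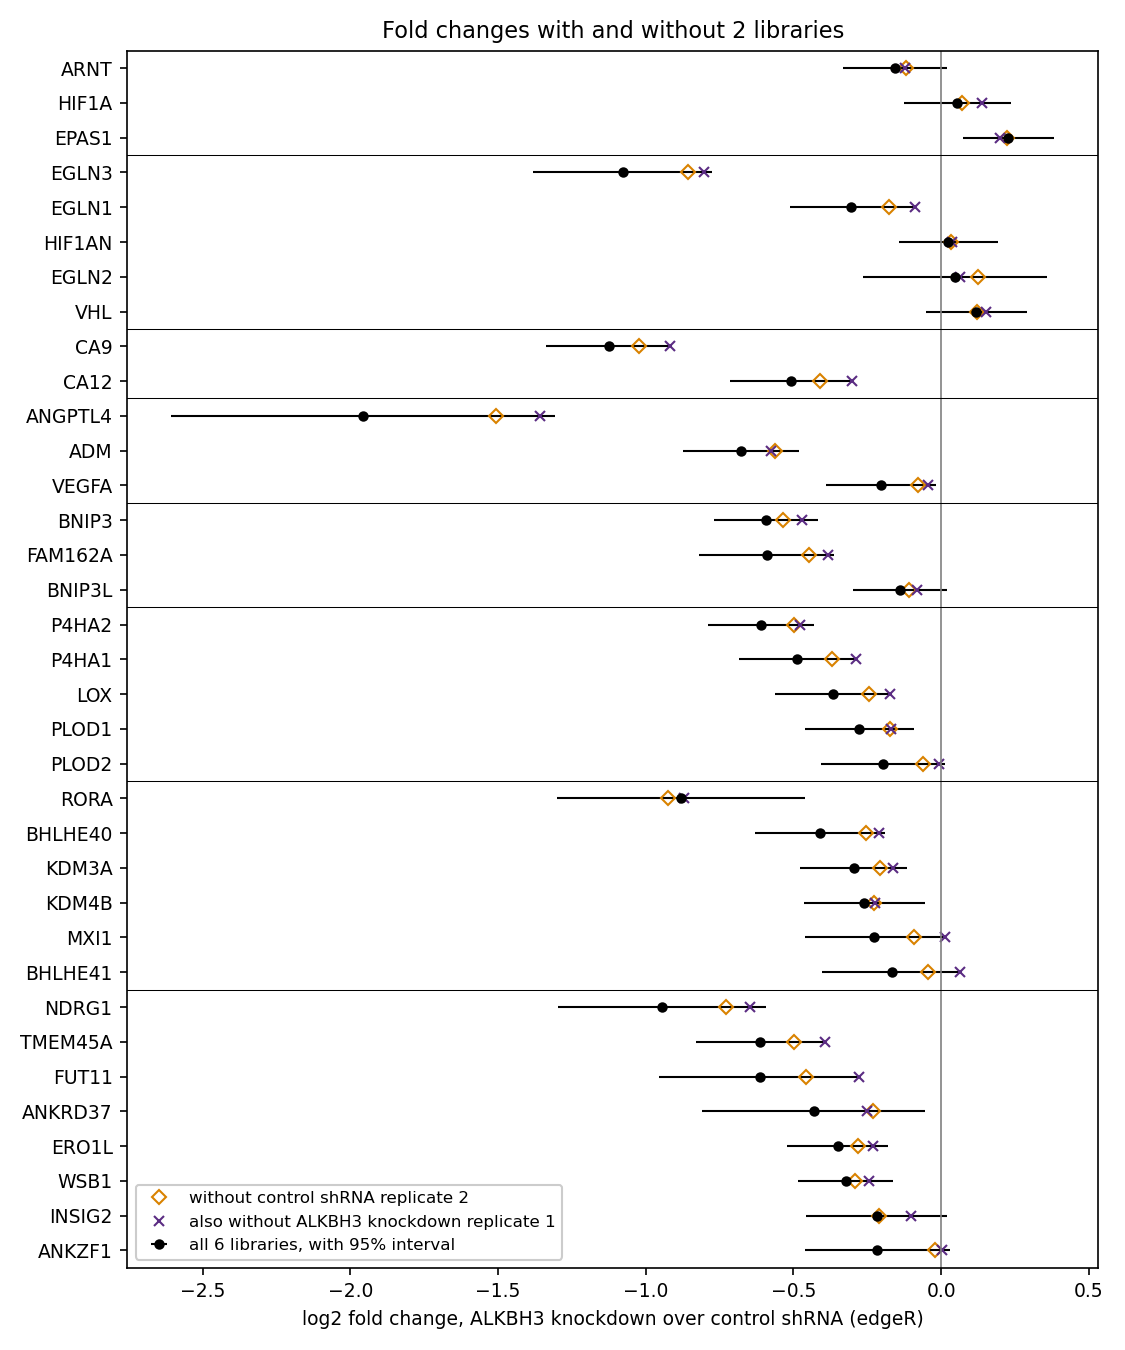
Log2 fold change of each gene, ALKBH3 knockdown over control shRNA, from all 6 libraries with its 95% interval (black), without control shRNA replicate 2 (orange diamonds), and also without ALKBH3 knockdown replicate 1 (purple crosses). Leaving the libraries out draws most targets toward 0, with CA9 at -1.12, -1.02 and -0.92 and VEGFA at -0.20, -0.08 and -0.05, while RORA stays at -0.88, -0.92 and -0.87. The libraries left out were the highest and the lowest in most targets, so a shift toward 0 follows by construction.

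The HIF subunits did not pass the test. HIF1A, the alpha subunit present in most cells (ENSG00000100644, chromosome 14 from 62162231 to 62214976, plus strand, hg19), had 483, 550.2 and 564 CPM in the knockdown libraries, against 551, 525 and 462 CPM in the controls. The groups overlapped, and the log2 fold change of 0.05 had a 95% interval from -0.13 to 0.24 (Benjamini-Hochberg adjusted p = 0.772, edgeR quasi-likelihood). It was -0.015 without control shRNA replicate 3. EPAS1, also called HIF2A, is the alpha subunit of more restricted tissues. It had 263, 253 and 247 CPM in the knockdown, against 216, 216 and 219 CPM in the controls. Every knockdown library was above every control library, and the log2 fold change of 0.23 had an SE of 0.0751 (Benjamini-Hochberg adjusted p = 0.0610, edgeR quasi-likelihood). EPAS1 was called higher with library totals as the only scaling (edgeR, adjusted p = 0.0368), and by DESeq2 (adjusted p = 0.0256). Their shared partner ARNT had 48.5, 48.1 and 48.6 CPM in the knockdown, against 53.6, 56.8 and 51.6 CPM in the controls, without overlap. The log2 fold change of ARNT was -0.16, with a 95% interval from -0.33 to 0.02 (Benjamini-Hochberg adjusted p = 0.287, edgeR quasi-likelihood). Per kilobase of exon, HIF1A was at 125 ± 10.1 RPKM in the knockdown and 120.5 ± 10.8 RPKM in the controls (SD, n = 3 each). EPAS1 was at 49.2 ± 1.56 and 42.0 ± 0.332 RPKM, and ARNT at 9.80 ± 0.0521 and 10.9 ± 0.522 RPKM, in the same order of groups. HIF1A was thus the most abundant of the 3 mRNAs per length in each group.

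Of the 3 prolyl hydroxylases, EGLN3 fell. EGLN1 is the main oxygen sensor of most cells, EGLN2 is the form that hypoxia does not induce, and EGLN3 is itself strongly induced by HIF. EGLN3 (ENSG00000129521, chromosome 14 from 34393437 to 34931980, minus strand, hg19) had 10.9, 11.9 and 12.5 CPM in the knockdown libraries, against 20.4, 31.8 and 22.1 CPM in the controls. All knockdown libraries were below all controls, and the control spread came mainly from replicate 2. The log2 fold change was -1.08 with an SE of 0.146 (Benjamini-Hochberg adjusted p = 2.81e-05, edgeR quasi-likelihood), and -0.86 without control shRNA replicate 2. The gene's annotated span overlaps SPTSSA on the same strand by 29568 bases, and how reads in shared parts were counted is not stated. EGLN1 had 59.7, 73.3 and 72.0 CPM in the knockdown, against 77.2, 98.5 and 77.2 CPM in the controls. These groups did not overlap, but the log2 fold change of -0.30 narrowly missed the threshold (Benjamini-Hochberg adjusted p = 0.0649, edgeR quasi-likelihood). EGLN1 passed without control shRNA replicate 1 (adjusted p = 0.0399 in edgeR) or replicate 3 (0.0468), and was at -0.18 without control shRNA replicate 2. EGLN2 averaged 8.42 ± 0.650 CPM in the knockdown and 8.16 ± 0.749 CPM in the controls (SD, n = 3 each), and its log2 fold change of 0.05 turned to -0.017 without ALKBH3 knockdown replicate 1. EGLN2 lies within the span of a listed read-through gene, RAB4B-EGLN2, that was given 0 counts.

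Per length, the order of the hydroxylases differed between the groups. EGLN1 was the highest in each library. EGLN3 had 2.24, 2.44 and 2.56 RPKM in the knockdown, against 4.19, 6.54 and 4.53 RPKM in the controls. EGLN2 had 3.02, 2.74 and 2.59 RPKM in the knockdown, against 2.54, 2.98 and 2.57 RPKM in the controls. EGLN3 was therefore above EGLN2 in every control library and below it in every knockdown library, though in knockdown replicate 3 the distance was within the SD of either gene. These lengths are the exons of GENCODE 29, which is not the annotation behind the counts, so the place of the crossing depends on them.

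**Figure D3:**
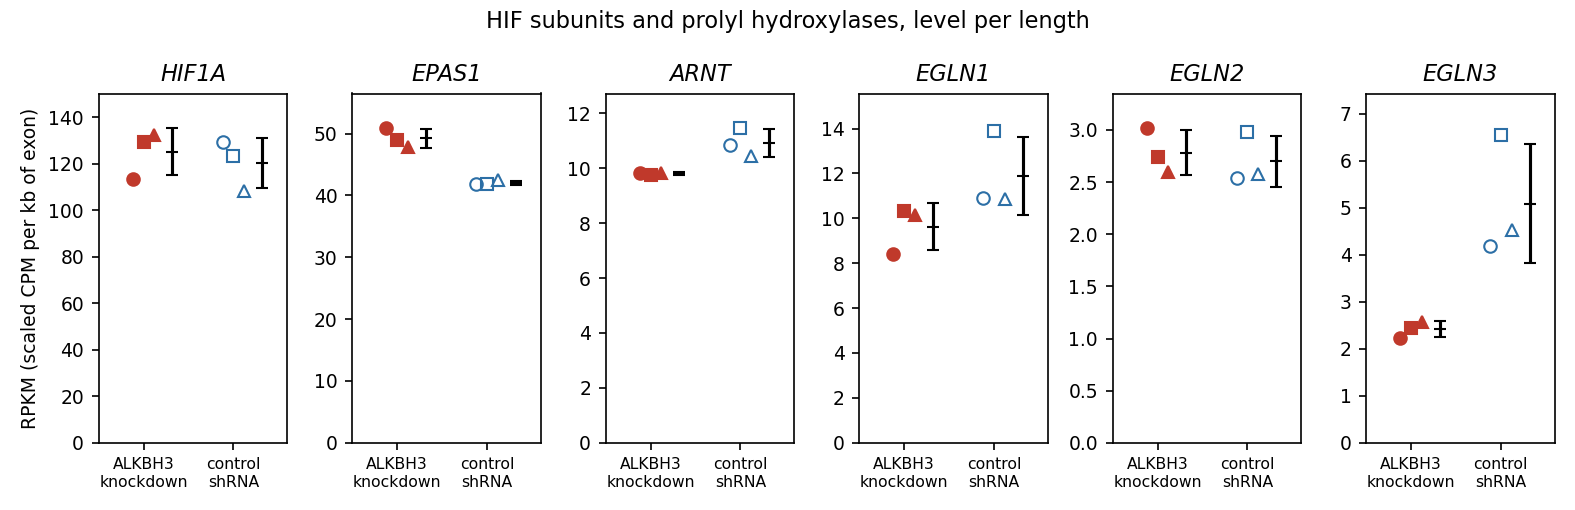
Level per kilobase of exon (RPKM) of the 3 HIF subunits and the 3 prolyl hydroxylases in the ALKBH3 knockdown libraries (red, left in each panel) and control shRNA libraries (blue, right), with circle, square and triangle for replicates 1, 2 and 3 and bars for mean ± SD (n = 3). EGLN3 is at 2.41 ± 0.165 in the knockdown and 5.09 ± 1.27 in the controls, while HIF1A and EGLN2 overlap between the groups.

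The remaining brakes on HIF showed no call. HIF1AN, the asparagine hydroxylase that blocks coactivator binding, had 62.7, 63.9 and 61.8 CPM in the knockdown, against 62.4, 62.6 and 60.2 CPM in the controls. The libraries were close together and overlapped, and the log2 fold change of 0.02 had a 95% interval from -0.14 to 0.19. VHL, the substrate-binding subunit of the ligase, had 58.6, 62.3 and 62.2 CPM in the knockdown, against 54.6, 56.6 and 57.4 CPM in the controls. Every knockdown library was above every control library for VHL, and the log2 fold change of 0.12 had a 95% interval from -0.05 to 0.29 (Benjamini-Hochberg adjusted p = 0.433, edgeR quasi-likelihood).

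Both membrane carbonic anhydrases fell. CA9 and CA12 turn carbon dioxide into bicarbonate and protons at the cell surface, and CA9 is a standard marker of hypoxic tumour tissue. CA9 (ENSG00000107159, chromosome 9 from 35673853 to 35681156, plus strand, hg19) had 54.7, 73.2 and 63.7 CPM in the knockdown libraries, against 125, 159 and 134 CPM in the controls. The highest knockdown library was far below the lowest control. The log2 fold change was -1.12 with an SE of 0.102 (Benjamini-Hochberg adjusted p = 1.59e-07, edgeR quasi-likelihood), and it lay between -1.24 and -1.02 when each library was left out in turn. ARHGEF39, on the opposite strand, overlaps CA9 by 2011 bases and had 1721 counts over the 6 libraries, and whether counting used strand is not stated. The same doubt holds for LOX, whose span shares 12376 bases with SRFBP1 on the other strand, for ANKRD37 with UFSP2 (1089 bases), and for FAM162A with WDR5B (467 bases). It also holds for P4HA2 with PDLIM4 (15784 bases) and SLC22A4 (873 bases), BNIP3L with PNMA2 (951 bases), HIF1AN with NDUFB8 (929 bases) and SEC31B (800 bases), BHLHE41 with SSPN (3137 bases), FUT11 with AC022400.2 (330 bases) and ANKZF1 with GLB1L (64 bases). CA12 had 74.0, 98.4 and 90.7 CPM in the knockdown, against 114, 141 and 119 CPM in the controls, again without overlap. Its log2 fold change was -0.51 with an SE of 0.0990 (Benjamini-Hochberg adjusted p = 0.00203, edgeR quasi-likelihood).

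Of the 3 secreted factors, 2 fell and 1 did not pass, and all 3 had a negative log2 fold change. ANGPTL4, an inhibitor of lipoprotein lipase, had the most negative log2 fold change of the 35 genes from low counts: 16, 23 and 18 in the knockdown, against 47, 102 and 46 counts with control shRNA. The value was -1.96 with an SE of 0.315 (Benjamini-Hochberg adjusted p = 1.88e-04, edgeR quasi-likelihood), and -1.51 without control shRNA replicate 2, whose count stood above the other controls. ADM encodes adrenomedullin, a peptide that widens vessels. It had 103, 100.5 and 98.1 CPM in the knockdown, against 132, 185 and 164 CPM in the controls. The knockdown libraries were close together and all below the controls, and the log2 fold change of -0.68 had an SE of 0.0952 (Benjamini-Hochberg adjusted p = 5.17e-05, edgeR quasi-likelihood). VEGFA, the main growth factor of vessels and the HIF target most often measured, did not pass. It had 278, 305 and 289.8 CPM in the knockdown, against 298.5, 391 and 315 CPM in the controls. The groups overlapped, and the log2 fold change of -0.20 had a 95% interval from -0.39 to -0.02 (Benjamini-Hochberg adjusted p = 0.183, edgeR quasi-likelihood). Without control shRNA replicate 2 it was -0.08.

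Of the mitochondrial targets, BNIP3 and FAM162A fell and BNIP3L did not pass. BNIP3 and BNIP3L are outer membrane receptors that mark mitochondria for autophagy, and FAM162A is a mitochondrial protein that hypoxia induces. BNIP3 (ENSG00000176171, chromosome 10 from 133781578 to 133795435, minus strand, hg19) had 268, 305 and 309 CPM in the knockdown libraries, against 405, 479 and 445 CPM in the controls. The groups were well apart, and the log2 fold change of -0.59 had an SE of 0.0852 (Benjamini-Hochberg adjusted p = 4.05e-05, edgeR quasi-likelihood). BNIP3 has many processed pseudogenes, so its reads are uncertain where they match more than 1 locus. FAM162A had 47.7, 55.4 and 54.4 CPM in the knockdown, against 64.2, 93.9 and 78.8 CPM in the controls. Its log2 fold change was -0.59 (Benjamini-Hochberg adjusted p = 0.00153, edgeR quasi-likelihood). BNIP3L averaged 173 ± 5.35 CPM in the knockdown and 191 ± 10.9 CPM in the controls (SD, n = 3 each), with a log2 fold change of -0.14 and a 95% interval from -0.30 to 0.02.

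Among the genes for collagen maturation, both collagen prolyl hydroxylase subunits and LOX fell, while the lysyl hydroxylases did not pass. P4HA1 and P4HA2 are alternative catalytic subunits of the enzyme that stabilises the collagen helix. P4HA1 had 217, 256 and 260.3 CPM in the knockdown, against 312, 398 and 318 CPM in the controls. P4HA2 had 205, 213 and 215 CPM in the knockdown, against 293, 370.1 and 302 CPM in the controls. For both the groups were clearly apart, with log2 fold changes of -0.49 and -0.61 (Benjamini-Hochberg adjusted p = 0.00157 and 3.56e-05, edgeR quasi-likelihood). LOX, which cross-links collagen and elastin, had 165, 187 and 197 CPM in the knockdown, against 229, 273 and 205 CPM in the controls. Control replicate 3 was close to the highest knockdown library, and the log2 fold change of -0.36 (Benjamini-Hochberg adjusted p = 0.0187, edgeR quasi-likelihood) lost its call without control shRNA replicate 2 (0.102) or ALKBH3 knockdown replicate 1 (0.0869). PLOD1 and PLOD2 modify lysines so that collagen can be cross-linked. PLOD2 was the most abundant of the 35 by CPM and per length, at 1398 ± 96.1 CPM in the knockdown and 1601 ± 263 CPM in the controls (SD, n = 3 each), with overlapping groups. Its log2 fold change was -0.20, or -0.06 without control shRNA replicate 2. PLOD1 had 497, 502 and 496 CPM in the knockdown, against 530.0, 687 and 592 CPM in the controls, without overlap. It narrowly missed the threshold at a log2 fold change of -0.28 (Benjamini-Hochberg adjusted p = 0.0558, edgeR quasi-likelihood), and passed without control shRNA replicate 1 (0.0113) and with DESeq2 (0.0319). It was at -0.17 without control shRNA replicate 2 (0.259).

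Of 6 regulators of transcription and chromatin among the targets, 3 fell. RORA, a nuclear receptor tied to the circadian clock, was low, with 49, 49 and 51 counts in the knockdown, against 84, 78 and 78 counts with control shRNA. It was the 1 called gene in which control shRNA replicate 2 was not the highest library, and its log2 fold change of -0.88 had an SE of 0.204 (Benjamini-Hochberg adjusted p = 0.00672, edgeR quasi-likelihood). BHLHE40 is a repressor that HIF induces. It had 64.9, 75.4 and 66.4 CPM in the knockdown, against 77.6, 110.2 and 86.8 CPM in the controls. The log2 fold change of -0.41 (Benjamini-Hochberg adjusted p = 0.0199, edgeR quasi-likelihood) became -0.25 without control shRNA replicate 2 (0.106), and the call was also lost without ALKBH3 knockdown replicate 1 (0.0925) or replicate 3 (0.0836). KDM3A removes methyl groups from histone H3 lysine 9. It had 81.6, 91.2 and 86.8 CPM in the knockdown, against 107, 119 and 92.8 CPM in the controls. Its log2 fold change of -0.30 (Benjamini-Hochberg adjusted p = 0.0372, edgeR quasi-likelihood) was past the threshold in 1 of the 6 fits that left out a library, the one without control shRNA replicate 3; in the others the adjusted p ran up to 0.185. The other 3 did not pass. KDM4B, another histone demethylase, had 28.3, 27.1 and 30.2 CPM in the knockdown, against 31.8, 35.7 and 35.0 CPM in the controls, without overlap (log2 fold change -0.26, 95% interval -0.47 to -0.06). The MYC antagonist MXI1 averaged 34.3 ± 4.40 CPM in the knockdown and 40.0 ± 6.20 CPM in the controls, and the repressor BHLHE41 34.6 ± 4.60 and 38.7 ± 5.91 CPM in the same order (SD, n = 3 each). Both overlapped between the groups, at -0.23 and -0.17. They were at -0.09 and -0.04 without control shRNA replicate 2, and without ALKBH3 knockdown replicate 1 at -0.12 and -0.06. Without control shRNA replicate 2 and ALKBH3 knockdown replicate 1 together, MXI1 and BHLHE41 were at 0.013 and 0.065.

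Of the 8 other targets, 5 fell. NDRG1, a stress protein that hypoxia and iron shortage induce, had 233, 285 and 274 CPM in the knockdown, against 405, 649 and 470.0 CPM in the controls. The groups did not overlap, and the controls were widely spread, with replicate 2 at 1.48 times the mean of the others. The log2 fold change of -0.95 had an SE of 0.157 (Benjamini-Hochberg adjusted p = 0.00508, edgeR quasi-likelihood). It was -0.86 without ALKBH3 knockdown replicate 1, where the adjusted p was 0.0584. TMEM45A, a membrane protein, had 40.9, 52.3 and 50.4 CPM in the knockdown, against 65.5, 84.4 and 69.5 CPM in the controls, with a log2 fold change of -0.61 (Benjamini-Hochberg adjusted p = 4.18e-04, edgeR quasi-likelihood). ERO1L, which passes oxidising power to protein disulfide isomerase, had 167, 189.6 and 182 CPM in the knockdown, against 229.7, 250.4 and 206 CPM in the controls. The groups were apart, at a log2 fold change of -0.35 (Benjamini-Hochberg adjusted p = 0.00887, or 0.0507 without control shRNA replicate 2, edgeR quasi-likelihood). WSB1, a subunit of a ubiquitin ligase that acts on VHL, had 118, 132 and 129.7 CPM in the knockdown, against 162, 166 and 148 CPM in the controls. The groups were apart at a log2 fold change of -0.32 (Benjamini-Hochberg adjusted p = 0.00979, edgeR quasi-likelihood). FUT11, a fucosyltransferase, had 13.8, 21.1 and 21.4 CPM in the knockdown, against 23.7, 34.4 and 27.8 CPM in the controls. Knockdown replicate 1 was well below the others of its group. The log2 fold change of -0.61 (Benjamini-Hochberg adjusted p = 0.0279, edgeR quasi-likelihood) lost its call without control shRNA replicate 2 (0.0849) or ALKBH3 knockdown replicate 1 (0.0627), and also without control shRNA replicate 3. ANKRD37, INSIG2 and ANKZF1 did not pass, at log2 fold changes of -0.43, -0.22 and -0.22, and their groups overlapped. ANKZF1, which releases stalled chains from ribosomes, had 73.1, 77.8 and 76.6 CPM in the knockdown, against 72.8, 110.1 and 81.1 CPM in the controls, where replicate 2 alone stood high. Without that library its log2 fold change was -0.02, and without control shRNA replicate 1 it was -0.33. The ankyrin repeat gene ANKRD37 had 7.12, 5.98 and 7.77 CPM in the knockdown, against 6.55, 11.8 and 9.68 CPM in the controls, and it passed without control shRNA replicate 1 (adjusted p = 0.0276 in edgeR) but was at -0.23 without control shRNA replicate 2 (0.518). INSIG2, which holds back sterol synthesis, did not share the high level in control replicate 2, with 18.8, 24.5 and 23.0 CPM in the knockdown, against 27.5, 26.0 and 23.6 CPM in the controls. Without ALKBH3 knockdown replicate 1 its log2 fold change was -0.11.

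Relatives within the list could be compared inside each library, where a ratio of CPM values does not depend on scaling. There were 10 such pairs, and an exact two-sided permutation test over 3 against 3 libraries cannot go below 0.10. In 6 pairs the groups did not overlap, at that smallest p of 0.10, or 0.167 adjusted over the 10 pairs, so none of these differences passed. The log2 ratio of CA9 over CA12 was -0.44, -0.43 and -0.51 in the knockdown, against 0.14, 0.17 and 0.17 in the controls. The libraries of each group lay close together, knockdown replicate 1 and control replicate 2 among them. Per length CA9 was the higher of the pair in every library, at 33.8 to 45.2 RPKM in the knockdown and 77.3 to 98.0 RPKM in the controls, where CA12 was at 11.5 to 15.3 RPKM in the knockdown and 17.8 to 22.0 RPKM in the controls. The log2 ratio of BNIP3 over BNIP3L was 0.68, 0.80 and 0.80 in the knockdown, against 1.06, 1.26 and 1.32 in the controls. That of EGLN3 over EGLN1 was -2.45, -2.62 and -2.53 in the knockdown, against -1.92, -1.63 and -1.81 in the controls. The ratios of EGLN3 and of EGLN1 over EGLN2, and of BHLHE40 over BHLHE41, were likewise lower in the knockdown without overlap, by 1.09, 0.34 and 0.23 on the log2 scale between group means. Those of P4HA1 over P4HA2, PLOD1 over PLOD2, KDM3A over KDM4B and HIF1A over EPAS1 overlapped between the groups.

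**Figure D4:**
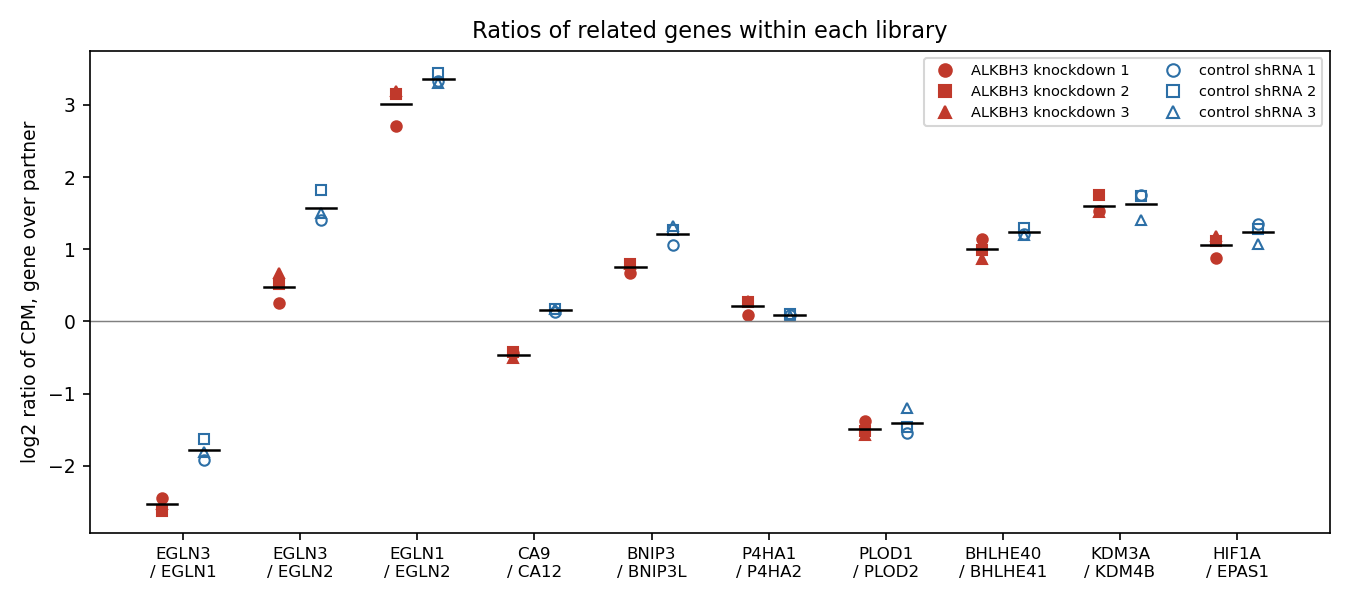
Log2 ratio of CPM for 10 pairs of related genes within each library, with ALKBH3 knockdown (filled red) left of control shRNA (open blue) for each pair; horizontal bars are group means of 3 libraries. CA9 over CA12 averages -0.46 in the knockdown and 0.16 in the controls with little spread, while the pairs P4HA1/P4HA2, PLOD1/PLOD2, KDM3A/KDM4B and HIF1A/EPAS1 overlap.

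A second list held 50 further HIF targets, chosen like the members with earlier results of these data known. Of the 50, 42 were tested. Of these 42, 16 fell and 3 rose, with a median log2 fold change of -0.28, where 4.12% of all tested genes were lower and 3.96% higher. Without control shRNA replicate 2 the list had 12 lower and 3 higher, without ALKBH3 knockdown replicate 1 it had 13 and 3, and without both 11 and 4. Over all tested genes these fits called 3.37%, 2.8% and 2.9% lower and 3.48%, 3.01% and 3.11% higher, in that order. The lipid droplet genes PLIN2 and HILPDA fell by 0.95 and 0.92 on the log2 scale. PLIN2, which coats the droplets, had 85.3, 91.0 and 95.5 CPM in the knockdown, against 150.5, 208 and 165 CPM in the controls. HILPDA, which inhibits the breakdown of stored fat, had 17.9, 18.4 and 19.5 CPM in the knockdown, against 32.04, 40.7 and 32.3 CPM in the controls. Both were apart between the groups (Benjamini-Hochberg adjusted p = 5.74e-07 and 4.31e-06, edgeR quasi-likelihood). Other genes that fell were PDK1, which holds pyruvate back from mitochondria, at -0.57, the glucose transporter SLC2A1 at -0.50, and the glycogen genes GBE1 and PPP1R3C at -0.55 and -0.66. The hormone STC1, the small GTPase RAB20 and the liprin PPFIA4 were at -0.70, -0.77 and -0.80. The integrin ITGA5, the matrix protein TGFBI, the urokinase receptor PLAUR, the adenosine receptor ADORA2B, the adenylate kinase AK4, and the nuclear proteins SAP30 and ZNF395 were also lower, between -0.46 and -0.29.

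The 3 further targets that rose were DDIT4, STC2 and NDUFA4L2. DDIT4, a brake on mTORC1, had 118, 147 and 129 CPM in the knockdown, against 53.9, 83.4 and 73.2 CPM in the controls, with a log2 fold change of 0.90 (Benjamini-Hochberg adjusted p = 9.26e-04, edgeR quasi-likelihood). STC2, a secreted glycoprotein, had 474, 468 and 455 CPM in the knockdown, against 345, 355 and 366 CPM in the controls, at 0.39 (Benjamini-Hochberg adjusted p = 0.00172, edgeR quasi-likelihood). Both are known to respond to ATF4 as well as to HIF, and a part of ATF4 in these values was not tested. NDUFA4L2, a mitochondrial protein strongly induced by HIF in other cells, was scarce, at 2.11, 2.82 and 2.72 CPM in the knockdown, against 0.704, 0.719 and 1.15 CPM in the controls. It had the highest log2 fold change of the list, 1.56 with an SE of 0.327 (Benjamini-Hochberg adjusted p = 0.00285, edgeR quasi-likelihood).

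Of 28 tested genes among 29 cofactors and degradation factors of HIF, 3 fell and 2 rose, with a median log2 fold change of 0.03, where 4.12% of all tested genes were lower and 3.96% higher. Without control shRNA replicate 2 the list had 4 lower and 1 higher, and without ALKBH3 knockdown replicate 3 it had 3 and 1. Over all tested genes these fits called 3.37% and 2.29% lower and 3.48% and 2.62% higher, in that order. Those that fell were HSP90AA1 and its cochaperone PTGES3, which belong to the chaperone machine that stabilises HIF1A protein, and the hydroxylase JMJD6, at -0.55, -0.37 and -0.39. HSP90AA1 had 4031, 3701 and 3748 CPM in the knockdown, against 5633, 6098 and 5099 CPM in the controls. HSP90AB1, also on this list, was lower without overlap but was not called, at -0.22 (Benjamini-Hochberg adjusted p = 0.132, edgeR quasi-likelihood). The genes that rose were AJUBA, a LIM protein that brings prolyl hydroxylases and VHL together, and SIAH1, a ligase that can degrade prolyl hydroxylases. AJUBA had 83.4, 87.1 and 92.3 CPM in the knockdown, against 58.4, 52.8 and 59.0 CPM in the controls, a log2 fold change of 0.63 (Benjamini-Hochberg adjusted p = 1.26e-05, edgeR quasi-likelihood). SIAH1 was at 0.45 (Benjamini-Hochberg adjusted p = 0.0270, edgeR quasi-likelihood). HIF3A did not reach the filter.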

How the data were processed

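Poly(A)-enriched RNA from 6 libraries was made into dUTP strand-marked libraries, per the labels' protocols. Raw counts of reads for each gene were deposited by the authors, per the file headers. STAR 2.7.9a, fastp 0.20.0, featureCounts 2.0, DESeq2 and build hg19 are named in the submitters' processing notes, while their settings, the annotation and the use of strand are not. A further 6 columns of normalised counts and 2 empty lines were not used here. The filterByExpr function of edgeR kept 12305 genes, and those removed held 0.0556% of counts. Counts were TMM-scaled and tested with edgeR 4.0.16 in R 4.3.3 (glmQLFit, robust, group alone), with Benjamini-Hochberg adjustment over all tested genes and calls at an adjusted p under 0.05. The SE was obtained by dividing the fold change (log2, unsigned) by the root of F, and intervals are 95%. CPM is relative to the TMM-scaled library size, and RPKM divides it by GENCODE 29 exon length. Alternatives used DESeq2 1.42.0 and limma 3.58.1. The edgeR code was tested on simulated data. By plan, all members may be named, with per-library values for sensors and called genes, and in the further lists called genes may be named. Beyond that plan, per-library values are given for VEGFA, PLOD1, KDM4B, ANKRD37, INSIG2 and ANKZF1, which were not called. HIF3A and HSP90AB1 are also named beyond it. Members, lists and stretches of sequence were chosen with earlier results of these data known. Same-numbered replicates were not paired: their deviations from group means correlated at 0.0579, 0.107 and -0.0556. A listed immune marker is not reported here.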

Additional observations from a re-analysis of the deposited data

How the results depend on the processing

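Across other scalings, filters, tools and left-out libraries, 520 of 560 values of single genes kept their direction and side of the threshold, 23 lost the call, 12 gained it and 5 changed sign, all 5 in genes that were not called. These were EGLN2 (-0.017 without ALKBH3 knockdown replicate 1, up to 0.12 without other libraries), HIF1A (-0.015 without control shRNA replicate 3, up to 0.12), and MXI1, BHLHE41 and ANKZF1 (0.013, 0.065 and 0.0046) without control shRNA replicate 2 and ALKBH3 knockdown replicate 1 together, an alternative chosen after seeing the data, as was limma-trend on computed normalised counts. That pair of libraries left 11 lower members and 1 higher cofactor. Only the 18 called members could lose a call. Of these 18, 13 kept it without control shRNA replicate 2 and 13 without ALKBH3 knockdown replicate 1. Leaving out each library in turn gave 13 to 20 lower members and 0 higher (2.29% to 3.39% of all genes lower), 1 to 3 higher and 3 to 4 lower cofactors, 12 to 17 lower and 3 higher further targets, and 312 to 433 higher and 285 to 423 lower genes in all (312 and 288 without ALKBH3 knockdown replicate 2, 285 lower without replicate 3). Of the members, 1 was higher, EPAS1, with library totals alone, with DESeq2 and with the replicate block. At an adjusted p under 0.01 there were 14 lower members (1.68% of all genes), 1 higher cofactor, and 251 higher and 207 lower genes in all. The replicate block gave 20 lower members (5.26% of all genes) and 587 higher and 647 lower genes, adding PLOD1, EGLN1 and EPAS1; the replicates share only a number, and 3 of 6 libraries correlated best with their own number. The cause of these shifts was not tested. The planned fit to the deposited normalised columns was not run. Precision is limited by 3 libraries a group and, for ANGPTL4, RORA and NDUFA4L2, by low counts.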
